A study of Mus musculus with 6 samples.

Results

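The genes described are those of glycolysis and of the response to low oxygen in the cranial base of the mouse embryo, 34 genes given by symbol, each of which matched 1 entry among the 43496 of the deposited table. They comprise 2 transporters of glucose and lactate, 17 glycolytic enzymes, 3 regulators of glycolytic flux, 2 alpha subunits of the hypoxia-inducible factor (HIF), 2 prolyl hydroxylases and 8 other targets of HIF. RNA was sequenced from dissected cranial base, which supports the brain and forms first as cartilage, at stage E15.5 (mid to late gestation), from 3 control and 3 Memo1 mutant embryos of strain C57BL/6J with 1 library each. Their Memo1 mutation was an allele made with the mutagen ENU, the labels call the other embryos only controls, and no treatment is given. The tissue was held in RNAlater, an RNA preservative, until the embryos were genotyped. Memo1 itself was 19.1, 23.1 and 21.9 FPKM in controls 1, 2 and 3 and 25.4, 20.1 and 22.2 FPKM in mutants 1, 2 and 3, with overlap, and since an ENU allele need not lower the mRNA these levels do not check the labels. Replicate numbers follow the order of deposit. The p-values set a group difference against the spread between these embryos only, an estimate that the fit adjusts using all genes. Some controls and mutants share the first word of their titles, and the main fit takes the embryos as independent. The comparison asked which genes differ between mutant and control cranial base. Levels are in FPKM, a read density adjusted for gene length and sequencing depth, so they can be compared between genes. This holds less for genes with near-identical copies, whose levels are uncertain, as described below.

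Mutant 1 stood apart, and because the table holds no counts the depth of the libraries is unknown. It listed 30811 entries at 0, against 19787 to 20594 in the other 5 libraries. Its log2 values correlated with theirs at r = 0.748 to 0.762 across genes, against 0.968 to 0.981 among the other 5. The main results are therefore given with and without mutant 1. Mutant 3 alone had Xist, at 114 FPKM where no other library exceeded 0.0942 (Xist RNA marks cells with a silenced X chromosome). Cartilage markers were abundant in each library, with 10 of them summing to 3759.6 to 5014 FPKM in controls. They also stood higher in mutants (5642 to 6625 FPKM), and 9 skeletal muscle markers stood lower (3491 to 4083 FPKM in mutants and 4553 to 6383 FPKM in controls). In bulk tissue, fewer cells of a type and less RNA per cell cannot be told apart, and the part of these marker differences in the results for the members was not tested.

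Glycolysis splits glucose into pyruvate in the cytosol, and lactate dehydrogenase turns pyruvate into lactate when it is not burned in mitochondria. In the presence of oxygen, prolyl hydroxylases mark the HIF alpha subunits for destruction, and in its absence the alpha subunits pair with Arnt and switch on genes for glucose uptake, glycolytic enzymes, lactate export and blood vessel growth. Growth cartilage has no blood vessels of its own, and its chondrocytes are known for depending on HIF1A and on glycolysis. Because oxygen acts on the HIF proteins through hydroxylation, the mRNA of Hif1a itself is not a measure of HIF activity.

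Of the 34 genes, 11 stood higher in every mutant than in every control, and 0 stood lower in every mutant. Over all 15710 genes tested, those with a mean of at least 1 FPKM, 8.98% stood higher and 11.9% lower in this way. The members were chosen with earlier results of these data known, so this contrast is no independent result. The 11 were the transporters Slc2a1 and Slc16a3, the enzymes Pfkl, Gapdh and Eno1, the alpha subunit Epas1, the hydroxylase Egln3, and the targets Bnip3, Ankrd37, Mif and Ddit4. Among them, Gapdh, Eno1, Bnip3 and Mif have near-identical copies, described below, and their levels are uncertain. With the libraries scaled to a common median ratio, 6 genes stood higher (Slc2a1, Slc16a3, Gapdh, Eno1, Ankrd37 and Mif) and Eno3 stood lower, over backgrounds of 9.1% and 11.7%. Pfkl, Epas1, Egln3, Bnip3 and Ddit4 thus overlapped between the groups under that scaling. Without mutant 1, 16 stood higher and 2 lower, over backgrounds of 16.2% and 20.1%. Counted in either direction, the members without overlap numbered 15 without control 1 (27.3%), 12 without control 2 (27.0%), 11 without control 3 (27.9%), 18 without mutant 1 (36.3%), 16 without mutant 2 (31.9%) and 14 without mutant 3 (33.2%), where the number in brackets is the share of all genes, 20.9% with all libraries. The plot of each library against the control mean shows both the shared rightward position of these genes and the spread of mutant 1.

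**Figure D1:**
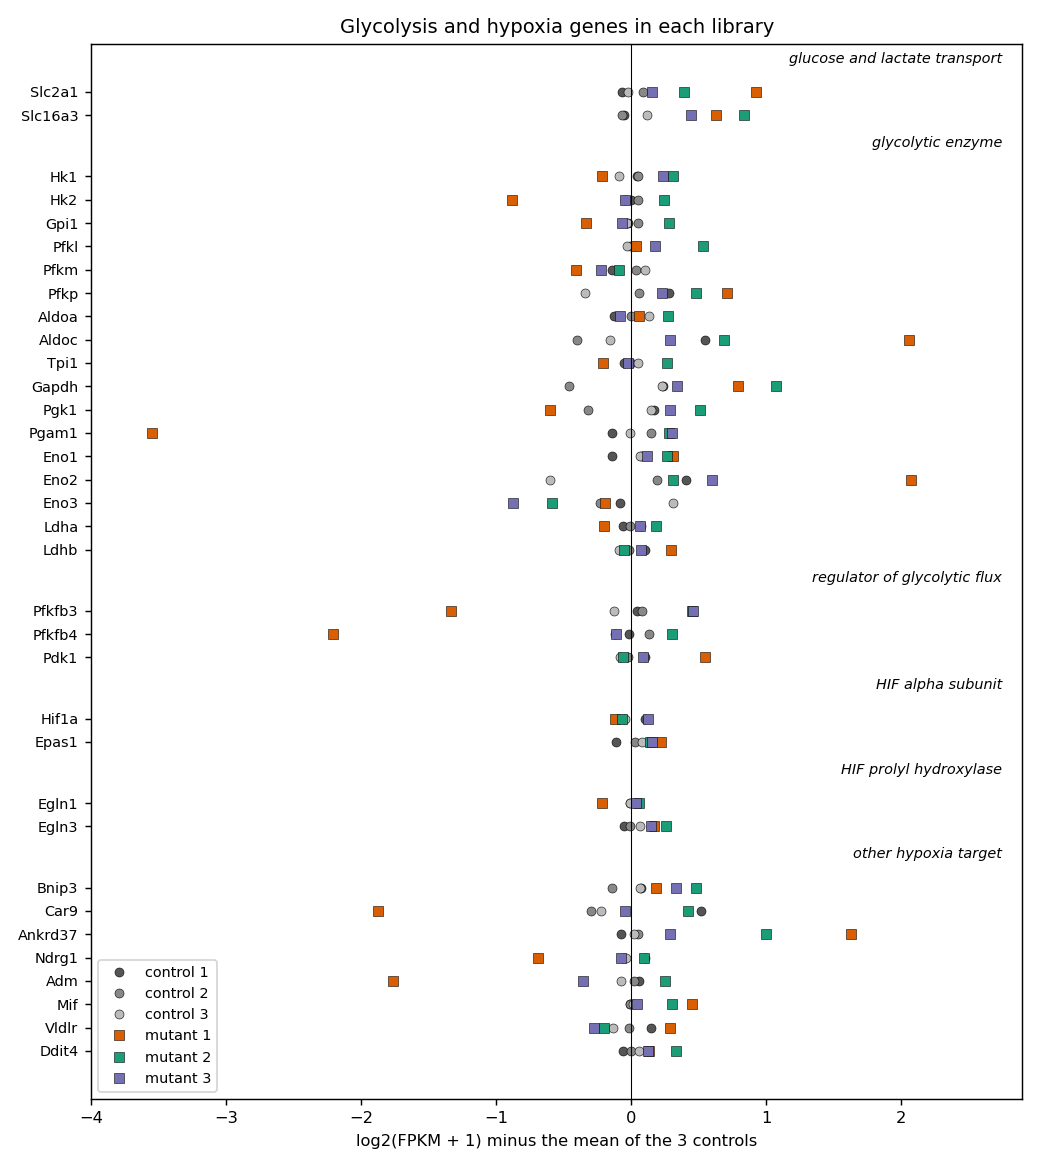
Each point is the log2(FPKM + 1) of a gene in 1 library minus the mean of the 3 controls, with circles for controls, squares for mutants and genes ordered by role. The squares of Slc2a1, Slc16a3, Ankrd37, Bnip3 and Mif all lie right of their circles, while mutant 1 lies far left for Pgam1, Pfkfb4, Car9 and Adm, which it listed at 0.

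No single gene passed the test. With limma on log2(FPKM + 1) and Benjamini-Hochberg adjustment over all 15710 genes, 0 of the 34 had an adjusted p under 0.05, as had 0.0% of all genes, and the lowest adjusted p of a member was 0.695. At an unadjusted p under 0.05 there were 4 members, Slc16a3, Gapdh, Bnip3 and Ankrd37, over a background of 5.12%. With array weights, which let a library far from its group count less (weight 0.0329 for mutant 1, 1.47 to 2.76 for the rest), limma called 2.04% of all genes but again 0 members. There the lowest adjusted p was that of Slc16a3 (limma adjusted p = 0.0541), and 11 members had an unadjusted p under 0.05, over a background of 18.3%. Without mutant 1 limma called 0.0446% of all genes and 0 members, the lowest adjusted p being 0.1102, with 10 members at an unadjusted p under 0.05 where the background was 17.0%. Log2 changes below are on the log2(FPKM + 1) scale, mutant minus control, and for the members none passed.

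The transporters at both ends of the pathway stood higher in every mutant. Slc16a3 (ENSMUSG00000025161), the monocarboxylate transporter MCT4 that exports lactate from glycolytic cells, was 33.6, 33.3 and 37.9 FPKM in controls 1, 2 and 3 and 54.5, 63.05 and 47.7 FPKM in mutants 1, 2 and 3. Its lowest mutant lay well above its highest control, and the mean was 1.58-fold that of controls (34.9 ± 2.57 and 55.1 ± 7.702 FPKM, SD, n = 3). The log2 change was 0.64, SE 0.14, with all libraries and 0.64, SE 0.13, without mutant 1. Within the embryos whose titles share a first word, mutant 1 exceeded control 1 and mutant 3 exceeded controls 2 and 3. Slc2a1 (ENSMUSG00000028645), the glucose transporter GLUT1, was 36.2, 40.4 and 37.2 FPKM in controls against 72.7, 50.04 and 42.3 FPKM in mutants. All mutants were above all controls, but mutant 3 only narrowly, and mutant 1 was the highest. The mean ratio was 1.45 with mutant 1 and 1.22 without it (log2 change 0.49, SE 0.21, and 0.27, SE 0.10, without mutant 1).

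HIF binds DNA at a short core, ACGTG or GCGTG, so the 250 bases before the annotated start of each gene were searched for both on both strands. The windows are RefSeq promoters of GRCm38.p6, which is another build than that of the expression table, and 32 of the 34 genes had one (Epas1 and Ndrg1 did not match). Either core was present before at least 1 start of 27 of 32 members (84.4%), of 60.9% of the 10427 genes with a promoter and a mean of at least 1 FPKM, and of 41.5% of all 27025 genes with a promoter. The core ACGTG alone was present in 16 of 32 members (50%), 24.6% and 18.5%. The members were listed for glycolysis and the response to low oxygen and include known HIF targets, so these shares are no independent result. Members had 45 windows for 32 genes and all genes 32851 for 27025, and more starts give more places for a match. The windows of members and of expressed genes had median GC contents of 59.2% and 59.6%, and the part of base composition was not tested. ACGTG is also part of CACGTG, the E-box that other factors bind, and a match is not a shown binding site. The sequences below set 4 genes that stood higher in every mutant and hold the core beside the first of the 2 windows of Ldha, which holds as many matches as that of Bnip3, where Ldha had a log2 change of 0.018, and Mif, which stood higher and holds none. They are given 5′ to 3′ on the strand of the gene, ending at the base before the start, with each core in capitals.
Slc16a3 chr11:120948817-120949066, plus strand: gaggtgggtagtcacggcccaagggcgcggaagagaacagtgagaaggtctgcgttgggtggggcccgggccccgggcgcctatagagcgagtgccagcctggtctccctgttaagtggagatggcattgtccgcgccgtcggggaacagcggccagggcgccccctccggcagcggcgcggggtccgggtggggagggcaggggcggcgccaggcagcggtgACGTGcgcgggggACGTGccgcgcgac
Slc2a1 chr4:119108495-119108744, plus strand: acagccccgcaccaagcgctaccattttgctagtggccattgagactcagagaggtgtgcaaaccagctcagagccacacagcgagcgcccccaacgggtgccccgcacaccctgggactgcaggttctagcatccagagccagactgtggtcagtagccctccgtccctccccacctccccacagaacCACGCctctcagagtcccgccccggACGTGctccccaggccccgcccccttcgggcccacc
Ankrd37 chr8:45999851-46000100, minus strand: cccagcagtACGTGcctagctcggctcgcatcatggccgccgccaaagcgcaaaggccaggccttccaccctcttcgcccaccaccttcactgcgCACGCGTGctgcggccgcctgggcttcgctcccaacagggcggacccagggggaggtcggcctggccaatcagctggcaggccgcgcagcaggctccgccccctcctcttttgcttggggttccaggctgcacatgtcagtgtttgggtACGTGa
Bnip3 chr7:138909507-138909756, minus strand: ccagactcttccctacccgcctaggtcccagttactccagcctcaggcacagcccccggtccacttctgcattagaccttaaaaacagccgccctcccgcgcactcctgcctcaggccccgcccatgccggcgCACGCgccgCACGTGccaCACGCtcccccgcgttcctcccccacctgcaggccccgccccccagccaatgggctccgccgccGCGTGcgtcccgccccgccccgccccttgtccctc
Ldha chr7:46845554-46845803, plus strand: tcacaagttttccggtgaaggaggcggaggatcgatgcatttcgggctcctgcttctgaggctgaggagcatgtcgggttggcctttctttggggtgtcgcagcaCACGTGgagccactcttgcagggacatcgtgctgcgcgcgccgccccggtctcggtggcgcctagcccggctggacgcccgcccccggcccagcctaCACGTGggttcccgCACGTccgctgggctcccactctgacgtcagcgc
Mif chr10:75860278-75860527, minus strand: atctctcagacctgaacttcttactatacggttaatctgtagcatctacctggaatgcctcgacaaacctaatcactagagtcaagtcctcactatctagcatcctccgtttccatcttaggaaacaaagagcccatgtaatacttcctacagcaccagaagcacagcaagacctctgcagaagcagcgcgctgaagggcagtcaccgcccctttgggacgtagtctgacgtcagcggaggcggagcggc
Slc16a3 has ACGTG on its own strand 27 and 14 bases before the start. Slc2a1 has GCGTG on the other strand and ACGTG on its own, 61 and 36 bases before the start. Ankrd37 holds 4 matches and Bnip3 holds 5, of which the pair at 108 and 107 bases before the start of Bnip3 are the 2 strands of 1 CACGTG. The Ldha window shown has 5 matches, 2 pairs of which are likewise the 2 strands of a CACGTG, and its other window, not shown, has 1 GCGTG. Mif has 0.

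The 17 glycolytic enzymes spanned a wide range of levels, and their sum overlapped between the groups. In controls the order was led by aldolase A (Aldoa) at 613 ± 55.02 FPKM (SD, n = 3), followed by triose phosphate isomerase (Tpi1) at 498 ± 18.9, lactate dehydrogenase A (Ldha) at 469 ± 21.9 and enolase 1 (Eno1) at 341 ± 28.2 FPKM. Tpi1 and Ldha, neighbours in this order, had overlapping ranges over the controls (479 to 517 and 449.6 to 493 FPKM), but Tpi1 was above Ldha within each control library. The 17 enzymes together made up 0.462, 0.479 and 0.507% of all FPKM in controls 1, 2 and 3 and 0.444, 0.572 and 0.5001% in mutants 1, 2 and 3, so the groups overlapped and mutant 2 was the highest. In mutant 2 the level of 14 of the 17 was above the control mean, in mutant 3 of 11 and in mutant 1 of 8.

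**Figure D2:**
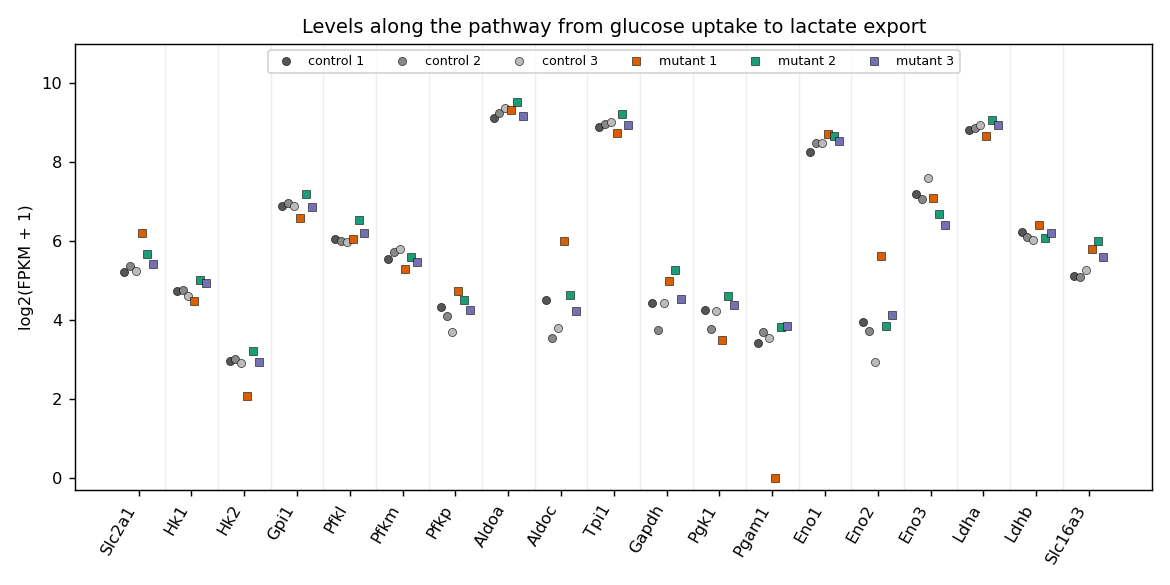
Levels of the 2 transporters and 17 enzymes as log2(FPKM + 1), in the order of the pathway, with 1 point per library (circles, controls; squares, mutants). Aldoa, Tpi1, Ldha and Eno1 lead, Gapdh, Pgk1 and Pgam1 lie far below them, and Pgam1 in mutant 1 is at 0.

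The abundant enzymes of the trunk of the pathway overlapped between the groups, except Eno1. Aldoa, which cleaves fructose bisphosphate, was 559, 611 and 669 FPKM in controls against 636, 739.6 and 579 FPKM in mutants (log2 change 0.084, SE 0.12, and 0.10, SE 0.13, without mutant 1). Ldha, which makes lactate, was 449.6, 466 and 493 FPKM in controls against 409, 533 and 492 FPKM in mutants (log2 change 0.018, SE 0.12, and 0.13, SE 0.080, without mutant 1). The groups overlapped in both genes, and the sign of the Ldha change turned in 5 of 15 alternatives. Tpi1 ranged from 479 to 517 FPKM in controls and from 431 to 601 FPKM in mutants. The glucose phosphate isomerase Gpi1 ranged from 118 to 125 FPKM in controls and from 95.3 to 147 FPKM in mutants. Both overlapped, with log2 changes of 0.013 and -0.039 (SE 0.13 and 0.17), which were 0.12 and 0.11 without mutant 1. Eno1, the enolase of most tissues, was 308, 358 and 356 FPKM in controls against 421, 408 and 369 FPKM in mutants. Its mutants all lay above its controls by a small margin (log2 change 0.23, SE 0.10, and 0.19, SE 0.10, without mutant 1).

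The next 3 enzymes of the pathway, Gapdh, Pgk1 and Pgam1, were listed at levels far below the enzymes on both sides of them. Gapdh, the dehydrogenase that makes NADH, was 20.7, 12.4 and 20.6 FPKM in controls against 30.8, 37.8 and 22.4 FPKM in mutants, where Tpi1 was 498 FPKM in the mean of controls. Every mutant was above every control for Gapdh, with control 2 the lowest library (log2 change 0.74, SE 0.28, and 0.71, SE 0.29, without mutant 1). These genes have near-identical copies, which can take reads. Of the 50-base windows of their transcripts, 25.1% for Gapdh, 53.9% for Pgk1 and 36.2% for Pgam1 also occur in transcripts of other genes. Gapdh had 30 copies of which at least 50% of the windows were its own. The 27 of these in the table summed to 28.8, 20.4 and 25.1 FPKM in controls against 20.8, 43.99 and 27.6 FPKM in mutants. These sums were of the same order as Gapdh itself, and in controls both lay far below Tpi1. The copy of Pgam1 named Pgam1-ps2 was 22.01, 22.7 and 21.7 FPKM in the controls, above Pgam1 in each and also far below Tpi1. The copies of Pgk1 in the table were near 0, with at most 0.0839 FPKM in a control. Eno1 also shares 25.99% of its windows. The labels do not say how reads were shared between copies, so the levels of these genes are uncertain, and the part of the copies in the Gapdh difference was not tested.

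Pgam1, a phosphoglycerate mutase, was 9.62, 11.9 and 10.6 FPKM in the controls, 0 in mutant 1, and 13.2 and 13.4 FPKM in mutants 2 and 3. Mutants 2 and 3 were thus above all controls. Pgk1, the phosphoglycerate kinase encoded on the X chromosome, ranged from 12.7 to 18.3 FPKM in controls and from 10.3 to 23.4 FPKM in mutants (log2 change 0.068, SE 0.33). Leaving out mutant 3, the library with Xist, turned this to -0.044, and leaving out mutant 2 or control 2 turned it to -0.16 or -0.093. It was 0.40 without mutant 1, with both remaining mutants above all controls.

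Isozyme shares were computed for 5 steps, and those of Pfkl, Pfkm and Eno3 separated the groups while the others overlapped. Without mutant 1 the Eno1 share separated them too. No background over all genes was computed for such shares. Phosphofructokinase, which commits sugar to glycolysis, is built from the liver (Pfkl), muscle (Pfkm) and platelet (Pfkp) subunits. Pfkl was 65.4, 63.6 and 62.6 FPKM in controls against 65.5, 92.7 and 72.5 FPKM in mutants, with mutant 1 at the edge of the controls (log2 change 0.25, SE 0.15, and 0.35, SE 0.11, without mutant 1). Pfkm was 46.3, 52.3 and 54.8 FPKM in controls against 38.2, 47.8 and 43.7 FPKM in mutants, with mutant 2 within the controls (log2 change -0.24, SE 0.13, and -0.16, SE 0.10, without mutant 1). As a share of the FPKM of the 3 subunits, Pfkm was 35.4, 39.6 and 42.3% in the controls and 29.5, 29.4 and 32.5% in the mutants (39.1% ± 3.48 and 30.5% ± 1.75, SD, n = 3). Every mutant had a lower Pfkm share than every control. The Pfkl share was 48.9% ± 1.02 in controls and 53.8% ± 3.26 in mutants (SD, n = 3), again without overlap, with mutant 1 at 50.5% close to control 1 at 50.05%. Pfkp overlapped between the groups, at 18.99, 16.1 and 11.98 FPKM in controls and 25.9, 21.95 and 18.3 FPKM in mutants.

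Enolase, which makes phosphoenolpyruvate, has a general form (Eno1), a neuronal form (Eno2) and a muscle form (Eno3). Eno3 was 147, 132 and 194 FPKM in controls against 136, 103 and 84.2 FPKM in mutants, so mutants 2 and 3 were below all controls and mutant 1 was not (log2 change -0.55, SE 0.23, and -0.73, SE 0.18, without mutant 1, limma adjusted p = 0.695 in the unweighted fit, 0.0578 with array weights and 0.133 over the 5 libraries). Its share of the enolase FPKM was 31.3, 26.3 and 34.8% in the controls and 22.5, 19.6 and 17.9% in the mutants, without overlap (30.8% ± 4.26 and 20.01% ± 2.31, SD, n = 3). The sum of the 9 muscle markers was 4553, 4666 and 6383 FPKM in controls against 3613, 4083 and 3491 FPKM in mutants. The highest mutant was mutant 2 for this sum and for Pfkm, and mutant 1 for Eno3. Of these markers 8 of 9 had a log2 change below 0, where 45.8% of all genes had one above 0. Of the 9 markers, 4 stood lower in every mutant (background 11.9%). None was at 0, and their part in the isozyme shares was not tested. Of other muscle forms, Pgam2, the muscle mutase, named after its values were seen, stood lower in mutants 2 and 3 than in the controls. Without mutant 1, 20.1% of all genes stood lower in this way, and with all libraries Pgam2 overlapped between the groups. Its log2 change was -0.28, SE 0.21, and -0.45, SE 0.17, without mutant 1.

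**Figure D3:**
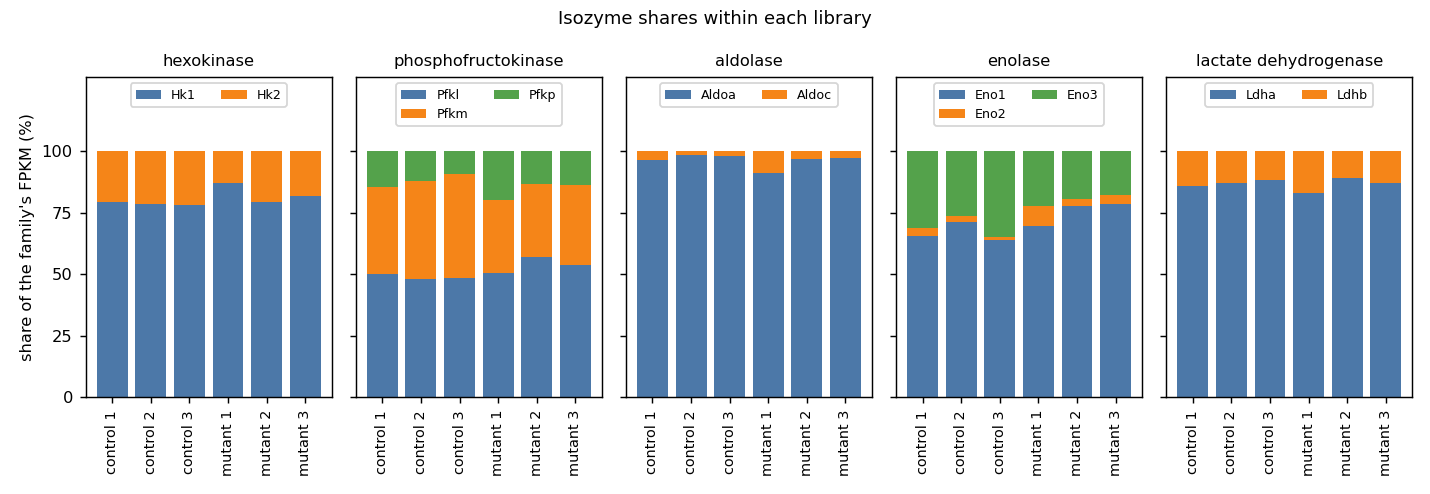
Bars give the share (%) of each isozyme in the summed FPKM of its family, per library, for hexokinase, phosphofructokinase, aldolase, enolase and lactate dehydrogenase. The Eno3 part of the enolase bar is 26.3% to 34.8% in controls and 17.9% to 22.5% in mutants, and the Pfkm part is smaller in each mutant than in each control.

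The brain-enriched forms of enolase and aldolase were highest in mutant 1. Eno2 was 14.4, 12.3 and 6.66 FPKM in controls against 48.01, 13.5 and 16.6 FPKM in mutants, and Aldoc, aldolase C, was 21.7, 10.8 and 12.9 FPKM in controls against 63.6, 23.9 and 17.9 FPKM in mutants. For both genes 1 of the other mutants lay among the controls, and the controls themselves varied, with coefficients of variation of 36.1% and 38.2%. The log2 changes were 1.0 and 1.01 with all libraries (SE 0.53 and 0.52) and 0.46 and 0.49 without mutant 1. The 7 neuron markers summed to 323, 216 and 157 FPKM in controls against 276, 226 and 273 FPKM in mutants, with control 1 highest. Of these markers 6 of 7 had a log2 change above 0, where 45.8% of all genes did, and 0 of 7 separated the groups. Without control 3 the log2 change was above 0 in 3 of 7. Their part in the Eno2 and Aldoc levels was not tested. The hexokinases, which trap glucose in the cell, overlapped between the groups. Hk1 was 25.9, 25.98 and 23.5 FPKM in controls against 21.5, 31.5 and 29.7 FPKM in mutants, and Hk2 was 6.83, 7.13 and 6.59 FPKM in controls against 3.25, 8.303 and 6.61 FPKM in mutants. Mutant 1 was the lowest library for both. Without it Hk1 was higher in both mutants (log2 change 0.28, SE 0.085, limma adjusted p = 0.192) and Hk2 still overlapped. Ldhb, the form that favours lactate use, was 73.9, 68.3 and 64.8 FPKM in controls against 84.7, 66.4 and 72.4 FPKM in mutants, and its share of lactate dehydrogenase was 12.8% ± 1.25 and 13.7% ± 3.14 (SD, n = 3).

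The regulators of flux all overlapped between the groups. Pfkfb3 makes the form of fructose bisphosphate that activates phosphofructokinase. It was 7.29, 7.48 and 6.37 FPKM in controls against 2.19, 10 and 10.02 FPKM in mutants, so mutants 2 and 3 were above and mutant 1 far below all controls. Its log2 change was -0.14, SE 0.52, with all libraries and 0.45, SE 0.11 (limma adjusted p = 0.128), without mutant 1. Pfkfb4, its paralog, was 3.57, 4.06 and 3.26 FPKM in the controls, 0 in mutant 1, and 4.69 and 3.27 FPKM in mutants 2 and 3. Pdk1, the kinase that keeps pyruvate out of the mitochondrial cycle, was 30.4, 27.7 and 26.7 FPKM in controls against 41.8, 27.03 and 30.1 FPKM in mutants. Mutants 2 and 3 lay among the controls for Pdk1 (log2 change 0.19, SE 0.18, and 0.013, SE 0.094, without mutant 1).

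Of the oxygen sensing genes, Epas1 and Egln3 stood higher in every mutant by a small margin, and Hif1a and Egln1 overlapped. Hif1a was 34.3, 30.7 and 30.99 FPKM in controls against 29.3, 30.4 and 34.99 FPKM in mutants, with overlapping groups (log2 change -0.021, SE 0.12, and 0.029, SE 0.10, without mutant 1). Epas1, which encodes HIF2A and is strong in endothelium, was 10.2, 11.3 and 11.8 FPKM in controls against 13.05, 12.3 and 12.4 FPKM in mutants. Every mutant was above every control, by as little as 12.3 against 11.8 FPKM (log2 change 0.17, SE 0.13, and 0.15, SE 0.10, without mutant 1), and the 8 endothelial markers summed to 201 to 225 FPKM in mutants and 179.9 to 204 FPKM in controls, with none of them at 0. Their part in the Epas1 difference was not tested. Egln1, the main hydroxylase, was 26.2, 26.8 and 26.3 FPKM in controls against 22.6, 27.6 and 27.1 FPKM in mutants. Its controls had a coefficient of variation of 1.15%, and mutants 2 and 3 exceeded them only slightly (log2 change -0.041, SE 0.12, and 0.047, SE 0.072, without mutant 1). Egln3, the hydroxylase that HIF itself induces, was 11.5, 11.9 and 12.6 FPKM in controls against 13.5, 14.5 and 13.4 FPKM in mutants, with each mutant above each control (log2 change 0.19, SE 0.13, and 0.20, SE 0.092, without mutant 1).

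The other hypoxia targets divided into 4 that stood higher in every mutant and 4 that did not. Ankrd37 (ENSMUSG00000050914), an ankyrin repeat protein and known HIF1 target, was 11.2, 12.4 and 12.1 FPKM in controls against 38.8, 24.8 and 14.7 FPKM in mutants. The controls were tight and the mutants spread widely, with mutant 3 only just above (log2 change 0.97, SE 0.34, and 0.64, SE 0.20, without mutant 1), and the mean ratio was 2.19, or 1.66 without mutant 1. Bnip3, which drives removal of mitochondria, was 41.1, 35.2 and 40.7 FPKM in controls against 44.3, 54.7 and 49.3 FPKM in mutants (log2 change 0.33, SE 0.13, and 0.41, SE 0.10, without mutant 1). Mif, a cytokine, was 155, 154 and 156 FPKM in the controls, with a coefficient of variation of 0.678%, and 213, 191 and 159.6 FPKM in mutants (log2 change 0.27, SE 0.12, and 0.17, SE 0.093, without mutant 1). Ddit4, an inhibitor of the growth kinase mTORC1 also known as REDD1, was 39.2, 40.97 and 42.8 FPKM in controls against 44.9, 51.8 and 44.7 FPKM in mutants (log2 change 0.20, SE 0.11, and 0.23, SE 0.093, without mutant 1). All 3 mutants of Bnip3, Mif and Ddit4 exceeded the controls, mutant 2 most in Bnip3 and Ddit4 and mutant 1 most in Mif.

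Copies bear on Mif and Bnip3. Of the 50-base windows of Mif 50.9% occur in other genes, and its copy Gm10169 was 198, 219 and 249 FPKM in controls against 565, 270.2 and 237 FPKM in mutants. The copy was thus more abundant than Mif in each library. For Bnip3 47.2% of windows were shared, and its copy in the table was 6.72, 11.5 and 8.33 FPKM in controls against 0, 12.3 and 12.99 FPKM in mutants. The levels of both genes are uncertain for this reason, and the part of the copies in the differences was not tested.

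The 4 targets that overlapped included Car9 and Adm, both low. Car9, the tumour-associated carbonic anhydrase, was 4.23, 1.99 and 2.14 FPKM in the controls, 0 in mutant 1, and 3.91 and 2.56 FPKM in mutants 2 and 3. Adm, the vessel-dilating peptide adrenomedullin, was 2.53, 2.44 and 2.22 FPKM in the controls, 0 in mutant 1, and 3.03 and 1.65 FPKM in mutants 2 and 3. These 2 genes together with Pgam1 and Pfkfb4 were the only members listed at 0 anywhere, and only in mutant 1. Ndrg1 ranged from 26.98 to 30.3 FPKM in controls and from 17.1 to 30.2 FPKM in mutants. Vldlr, a lipoprotein receptor, ranged from 10.6 to 13.1 FPKM in controls and from 9.53 to 14.5 FPKM in mutants. Mutants 2 and 3 were both below the controls for Vldlr (log2 change -0.24, SE 0.11, without mutant 1, limma adjusted p = 0.352).

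Set against each other, the glycolytic enzymes and the other hypoxia targets had medians close to each other. The median log2 change was 0.084 over the 17 enzymes and 0.066 over the 8 targets, beside -0.046 over all genes tested. Without mutant 1 these medians were 0.19, 0.18 and -0.015. The enzyme median was -0.011 without mutant 2, the library with the highest enzyme levels, while that of the targets was 0.066. In mutants 1, 2 and 3 the median difference of the enzymes from the control mean was -0.19, 0.28 and 0.12. That of the targets was 0.16, 0.32 and -0.00045, so it also varied between the mutants. With the first word of the titles as a fixed block, in which mutant 2 has a word of its own and carries no weight in the comparison, the medians were -0.00243 and 0.040. Every mutant was above every control in 3 of 17 enzymes and 4 of 8 targets (background 8.98% of all genes). Gapdh, Eno1, Bnip3 and Mif, whose levels are uncertain because of copies, are counted here. Without mutant 1 the counts were 6 of 17 and 4 of 8 (background 16.2%), and 1 enzyme and 1 target stood lower (20.1%). With median-ratio scaling 2 of 17 enzymes and 2 of 8 targets stood higher (background 9.1%), and 1 enzyme and 0 targets lower (11.7%). The summed FPKM of the 8 targets made up 0.0575, 0.0551 and 0.0566% of the library in the controls and 0.0656, 0.0727 and 0.0627% in the mutants, without overlap, whereas that of the enzymes overlapped. Mif, at 155 FPKM in the mean of controls, is the largest part of this sum. Mutant 2 had the most targets above the control mean, 7 of 8, against 5 in mutant 1 and 4 in mutant 3. Whether the enzymes and the targets differ from each other was not tested. Of all 34 members, 21 had a log2 change above 0, and 30 without mutant 1, where 45.8% and 47% of all genes did.

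**Figure D4:**
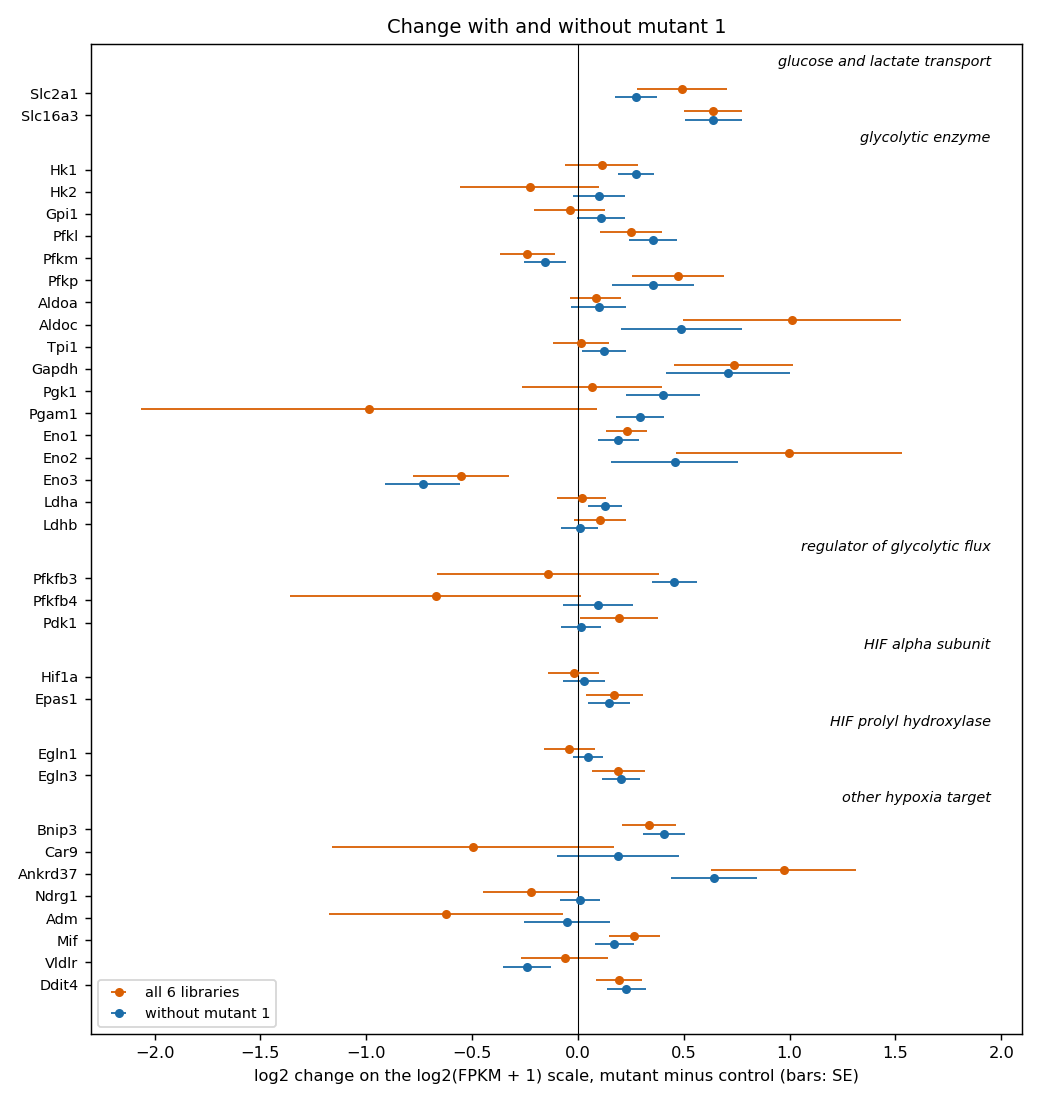
Log2 change on the log2(FPKM + 1) scale, mutant minus control, with SE as bars, for all 6 libraries (orange) and without mutant 1 (blue), genes grouped by role. Slc16a3 is at 0.64 and 0.64, while Pfkfb3 goes from -0.14 to 0.45 when mutant 1 is left out, and the orange values of Pgam1, Pfkfb4, Car9 and Adm depend on the pseudocount because mutant 1 lists them at 0.

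A wider list of 56 other genes of glycolysis, gluconeogenesis and the hypoxia response was read in the same way, of which 50 were tested. With limma 0 of 50 passed with all libraries and 0 of 50 without mutant 1 (7 and 11 at an unadjusted p under 0.05, over backgrounds of 5.12% and 17.0%). With array weights 3 of 50 rose, where 2.04% of all genes were called in either direction. Of 24 other hypoxia targets 8 stood higher in every mutant and 1 lower (Tfrc, which takes up iron), while of 15 remaining glycolysis genes 0 stood apart in either direction (backgrounds 8.98% and 11.9%). Of 6 components of the HIF pathway 0 stood higher and 2 lower, Hif3a and Hif1an, and of 5 gluconeogenesis genes 1 stood higher (Fbp1) and 1 lower (Pcx). Tfrc, Hif3a, Hif1an and Fbp1 are named after their values were seen. Without mutant 1 the targets numbered 11 higher and 1 lower, the glycolysis genes 1 and 3, and the HIF components 2 and 3, over backgrounds of 16.2% and 20.1%. P4ha1, a collagen prolyl hydroxylase induced by HIF, was 91.5, 87.2 and 89.02 FPKM in controls against 111, 117 and 115 FPKM in mutants and rose with array weights (limma adjusted p = 0.0343). Plod2, which hydroxylates collagen lysines, was 69.5, 69.5 and 73.97 FPKM in controls against 129, 84.7 and 111 FPKM in mutants (weighted limma adjusted p = 0.0611). Both collagen enzymes separated the groups fully, and so did the next 3 genes. Vegfa, the vessel growth factor, was 29.9, 35.5 and 33.1 FPKM in controls against 47.3, 50.4 and 38.97 FPKM in mutants (log2 change 0.46, SE 0.14, and 0.43, SE 0.13, without mutant 1). Car12, a carbonic anhydrase, was 4.97, 5.27 and 4.71 FPKM in controls against 17.1, 7.82 and 8.85 FPKM in mutants and rose with array weights (limma adjusted p = 0.0348). Bhlhe40, a transcriptional repressor, was 15.4, 12.1 and 14.1 FPKM in controls against 20.03, 21.4 and 15.99 FPKM in mutants. The haem oxygenase Hmox1, named after its values were seen, also rose with array weights (limma adjusted p = 0.0479), with mutant 1 at 17.8 FPKM below the controls and mutants 2 and 3 at 27 and 31.2 FPKM above them.

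On the lower side, Pcx, the pyruvate carboxylase that feeds gluconeogenesis and lipid synthesis, was 8.37, 9.01 and 9.08 FPKM in controls against 4.24, 6.901 and 5.88 FPKM in mutants, each mutant below each control (log2 change -0.58, SE 0.22, and -0.41, SE 0.11, without mutant 1). The 5 fat cell markers, of which 3 were at 0 in mutant 1 (Adipoq, Plin1 and Cidec), summed to 20.7 to 76.3 FPKM in mutants and 111 to 146 FPKM in controls, and their part in the Pcx level was not tested. Pkm, the pyruvate kinase of most tissues, was 359, 375 and 382 FPKM in controls against 228, 432 and 371 FPKM in mutants, lowest in mutant 1 and overlapping otherwise. Slc2a3, a glucose transporter of neurons, was 6.89, 8.03 and 6.88 FPKM in controls against 7.44, 6.75 and 9.11 FPKM in mutants, also with overlap.

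Among the marker lists, 9 of the 10 cartilage genes stood higher in every mutant, where 8.98% of all genes did. Col2a1, the main cartilage collagen, was 1569.8, 1764 and 2207 FPKM in controls against 2659.8, 2482 and 2315 FPKM in mutants. The cartilage sum was 3759.6, 4213 and 5014 FPKM in controls against 6625, 5642 and 5934 FPKM in mutants, so all 3 mutants were above the controls. The part of the cartilage markers in the levels of the transporters and targets was not tested. Bone markers were 361 to 616 FPKM in mutants and 955 to 1357 FPKM in controls, with Bglap at 0 in mutants 1 and 3. Epithelial markers were 328 to 371 FPKM in mutants and 593 to 600.1 FPKM in controls, and erythroid markers 481 to 644 FPKM in mutants and 676 to 828 FPKM in controls. Macrophage markers overlapped, at 109 to 139 FPKM in mutants and 132 to 149 FPKM in controls.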

How the data were processed

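RNA-seq of 6 libraries was deposited by the authors as 1 table of FPKM values per gene, with a mean per group and a p-value column that were not used here. Cufflinks and build mm9 are named in the submitters' processing notes, and the unit FPKM was inferred from that tool and the values. The labels name no aligner, annotation, strand setting or filter. A code of 999999999, in 15 entries, was read as missing. Genes averaging 1 FPKM or more were tested on log2(FPKM + 1) with limma 3.58.1 in R 4.3.3 (trend and robust estimates), 3 mutants against 3 controls, with Benjamini-Hochberg adjustment over all 15710 and a threshold of 0.05, and the fit was tested on simulated data. Alternatives changed weights, pseudocount (0.1 FPKM), filter (none or 5 FPKM), scaling, variance model, title word (random effect or fixed block) and libraries. Members and lists were chosen with earlier results of these data known. Values in every library are given for the 3 members of smallest p in each role, members whose groups did not overlap and isozymes, and from the wider list for the 6 genes of smallest p with Vegfa, Pkm and Slc2a3. Promoters came from RefSeq, GRCm38.p6. Copies were counted as 50-base windows shared between GENCODE M21 transcripts, a copy having at least 50% of its windows in the member.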

Additional observations from a re-analysis of the deposited data

How the results depend on the processing

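Of 507 log2 changes of members over 15 alternatives, 460 kept their direction and 47 turned it, with 20 members never turning. No alternative called a member. Over all genes limma called 320 with array weights, 8 with median-ratio scaling and mutant 1 left out, and 0 to 7 when each library was left out in turn. Members whose groups did not overlap numbered 7 with median-ratio scaling, 19 with that scaling and mutant 1 left out, and 11 to 18 when each library was left out. Over all genes the groups did not overlap in 20.8%, 36.1% and 27.0 to 36.3% under the same settings, and in 20.9% with all libraries unscaled. The median log2 change of the targets was 0.23 with a filter at 5 FPKM, which removes Car9 and Adm, and that of the enzymes ran from -0.011 to 0.19 when each library was left out, the lowest without mutant 2. The direction turned with array weights for Hk2 0.045, Gpi1 0.049, Pgam1 0.26, Pfkfb3 0.43, Pfkfb4 0.0043, Hif1a 0.058, Egln1 0.040 and Car9 0.11. With median-ratio scaling it turned for Tpi1 -0.026 and Ldha -0.021, and with that scaling and mutant 1 left out for Hk2 0.13, Gpi1 0.14, Pgam1 0.32, Pfkfb3 0.48, Pfkfb4 0.12, Hif1a 0.056, Egln1 0.074, Car9 0.21 and Ndrg1 0.038. When each library was left out in turn, the log2 changes that turned ranged as follows: Tpi1 -0.11 to 0.12, Ldha -0.065 to 0.13, Hif1a -0.095 to 0.029, Vldlr -0.24 to 0.042, Pgk1 -0.16 to 0.40, Hk2 -0.46 to 0.10, Gpi1 -0.20 to 0.11, Pgam1 -1.63 to 0.29, Pfkfb3 -0.44 to 0.45, Pfkfb4 -1.16 to 0.095, Egln1 -0.090 to 0.047, Car9 -0.96 to 0.19, Ndrg1 -0.38 to 0.011 and Aldoa -0.011 to 0.17. Beyond the construction of each alternative, the cause was not tested. The replicate numbers follow the order of deposit and pair no embryos. With the first word of the titles as a fixed replicate block, an alternative chosen after seeing the data in which mutant 2 carries no weight, limma called 0 genes, the enzyme median was -0.00243, and the direction turned for Aldoa -0.0024, Tpi1 -0.094, Pgk1 -0.12, Ldha -0.037 and Hif1a 0.0069. With 3 embryos a group and an unknown depth, differences of this size in low genes are not resolved.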
